A study of Mus musculus with 30 samples.

Results

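The genes described here encode the microtubule motors of the hippocampal cell: the kinesins, cytoplasmic dynein and dynactin. They were chosen by symbol, as Kif followed by a digit, Klc1 to Klc4, any symbol beginning with Dync1, Dynll or Dynlt, and Dctn1 to Dctn6, and 55 of the 17477 genes in the count table met this rule. Another 8 symbols that meet it, among them Kif12, Kif2b and 3 of the Dynlt1 genes, had no row in the count table. By role the 55 genes were sorted into 15 neuronal transport kinesins, 4 kinesin light chains, 5 heavy, intermediate and light intermediate chains of dynein, 5 dynein light chains, 6 dynactin subunits, 11 mitotic kinesins, 6 ciliary kinesins and 3 other kinesins. The class names give a role, and RNA of whole tissue does not show which cells it came from.

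Gene expression was measured by RNA-seq of poly-A selected RNA from the whole hippocampus of adult C57 BL/6J mice, with 1 library per mouse. After weaning the mice were either housed alone (social isolation, SI) or kept in groups (group housed, GH), with no transgene or drug in any group. The females comprised 8 SI and 7 GH mice and the males 7 SI and 8 GH mice, and the animals had been through behavioural testing in earlier work of the same laboratory. The cage of each GH mouse is not given in the sources used here. Each mouse was tested as a unit, although GH mice that shared a cage may not be independent.

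Total counts ranged from 18809307 to 100844898 per library, and the Y-linked Ddx3y had at most 3 counts in a female and at least 765 in a male. Male SI animals 25, 33 and 39 stood apart from the other 12 males in their balance of long and short transcripts. The length slope of a library is the change in log2 CPM (counts scaled to library size), relative to the mean of its sex, with each doubling of transcript length, and it lay between -0.43 and -0.33 in these 3 animals. In the other SI males it lay between -0.04 and 0.22, and in GH males between 0.00 and 0.22. The main counts and gene values in males are therefore given both with these 3 animals and without them.

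Kinesins walk along microtubules, mostly toward the plus end, which in an axon points away from the cell body, while cytoplasmic dynein, helped by dynactin, walks toward the minus end. In neurons these motors carry synaptic vesicle precursors, mitochondria, receptors and RNA over long axons and dendrites, so that neurons hold large amounts of the transport kinesins. Other kinesins build the mitotic spindle of dividing cells or work in cilia, and most cells of an adult hippocampus do not divide.

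The classes differed widely in level. As CPM per kb of transcript, averaged over the 15 females, Kif5a was the highest of the 55 genes at 667, followed by Dynll2 at 305, Klc1 at 255 and Kif1a at 148. The highest mitotic kinesin was Kif22 at 0.838, and the highest ciliary kinesin was Kif19a at 1.58. In raw counts the mitotic Kif18b had between 1 and 14 in a female library, whereas Kif5a had between 87322 and 265959. The filter on low counts kept 53 of the 55 genes in females (not Kif14 and Kif18b) and 52 in males (also not Kif2c).

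**Figure D1:**
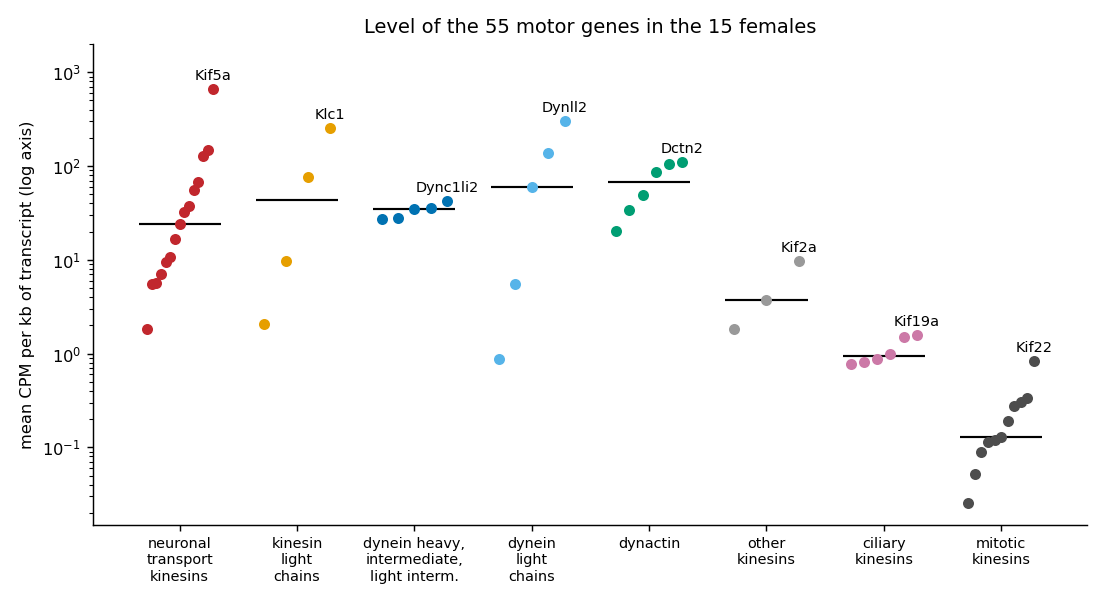
Mean CPM per kb of transcript of each of the 55 motor genes over the 15 females, on a log axis, by class. Each point is 1 gene, the line is the class median and the highest gene of each class is named. All 11 mitotic kinesins lie below 1, and Kif5a lies highest at 667.

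In females, the quasi-likelihood test of edgeR, adjusted by Benjamini-Hochberg over 16026 genes, called 6 of the 53 motor genes tested, and all 6 were neuronal transport kinesins with lower expression in SI: Kif5a, Kif5b, Kif5c, Kif1a, Kif1c and Kif13a. The same test called 2.94% of all genes lower and 0.936% higher. It called 0 motor genes higher. At an unadjusted p under 0.05, 11 motor genes were lower and 4 higher, against 11.0% and 9.30% of all genes. DESeq2 with the same surrogate variables called 7 lower and 1 higher, against 5.32% and 2.58% of all genes, and it gave no adjusted p for 9 of the 53.

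The kinesin-1 heavy chains, Kif5a, Kif5b and Kif5c, form the motor that carries mitochondria, vesicles and other cargo down the axon. All 3 were lower in SI females. Kif5a, the neuron-specific heavy chain, had 2590, 3429 and 4472 CPM as the lowest, median and highest of the 8 SI females, and 3679, 4662 and 5692 CPM in the 7 GH females. All SI females but 2 lay below the lowest GH female, and 5 GH females lay above the highest SI female, so the groups overlapped in part. The means were 3465 ± 677 (SD, n = 8) and 4637 ± 611 (SD, n = 7) CPM, and the fitted Log2FC of SI relative to GH was -0.37 (SE 0.0729, edgeR adjusted p = 0.0129). This was the largest fall among the motor genes tested in females.

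Kif5c, also a neuronal heavy chain, ranged from 756 to 894 CPM in SI females (median 799) and from 803 to 1105 in GH females (median 973). The lowest GH female, animal 46, lay among the SI values, and 5 GH females were above every SI female. The Log2FC was -0.22 (SE 0.046, edgeR adjusted p = 0.017). Kif5b, the heavy chain found in most cell types, ranged from 242 to 388 CPM in SI females (median 304) and from 276 to 405 in GH females (median 388). Here the groups overlapped over most of their range, since GH animal 46 had 276 CPM while the next lowest GH female had 371. Its Log2FC was -0.23 (SE 0.0519, edgeR adjusted p = 0.0242).

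**Figure D2:**
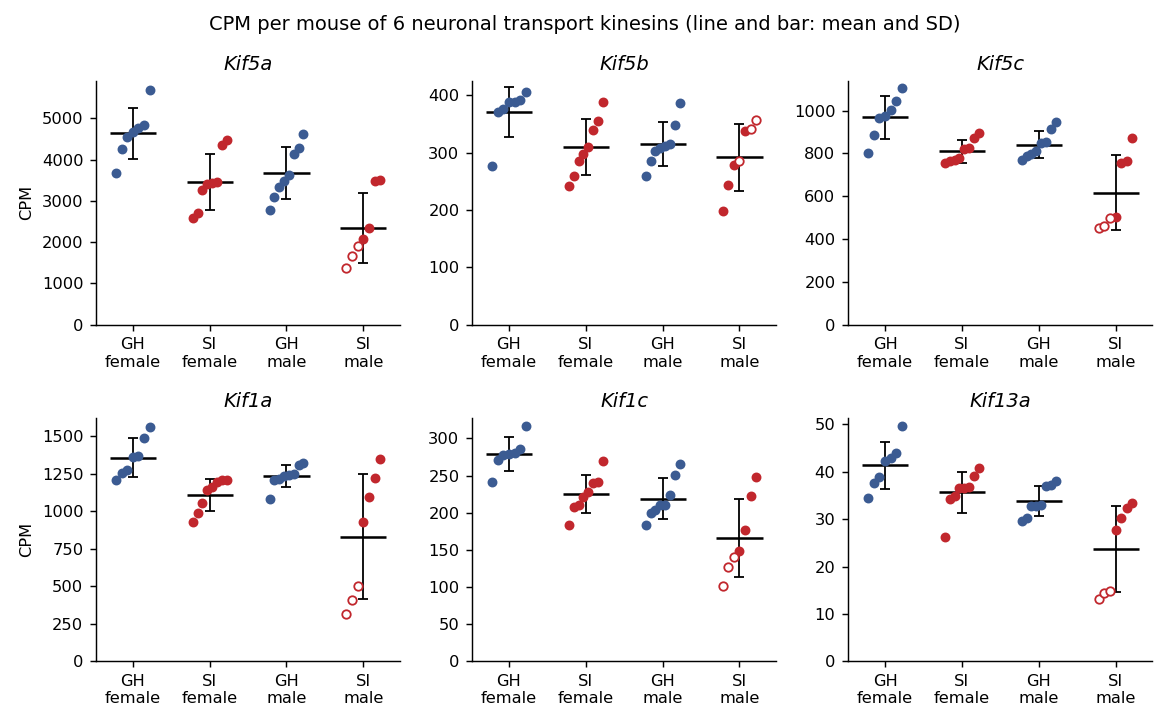
CPM of the 6 transport kinesins called in females, for each mouse of the 4 groups, with the mean (line) and SD (bar). Open circles are male SI animals 25, 33 and 39. Kif5a runs from 2590 to 4472 CPM in SI females and from 3679 to 5692 in GH females, and the open circles lie lowest in 5 of the 6 panels, Kif5b being the exception.

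The kinesin-3 motors carry synaptic vesicle precursors and dense core vesicles (Kif1a and Kif1b), Golgi-related and dense core vesicles (Kif1c) and endosomal and receptor cargo (Kif13a, Kif13b, Kif16b). Kif1a ranged from 930 to 1206 CPM in SI females (median 1148) and from 1206 to 1560 in GH females (median 1358). Every SI female lay below every GH female, although the nearest pair, SI animal 41 and GH animal 78, both round to 1206. Kif1a was the sole motor gene whose female groups did not overlap, and over all genes the SI group lay wholly below the GH group for 0.225% and wholly above it for 0.0874%. In males the groups overlapped for every motor gene, while 0.0253% of all genes had SI wholly below and 0.0316% wholly above GH. The means were 1110 ± 106 (SD, n = 8) and 1357 ± 129 (SD, n = 7) CPM, and the Log2FC was -0.25 (SE 0.0566, edgeR adjusted p = 0.0248).

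Kif1c had the smallest p of the motor genes. It ranged from 183 to 269 CPM in SI females (median 224) and from 241 to 317 in GH females (median 279), and 6 of the 7 GH females were above the highest SI female. The Log2FC was -0.26 (SE 0.0447, edgeR adjusted p = 0.0072). Kif13a ranged from 26.2 to 40.9 CPM in SI females (median 36.6) and from 34.5 to 49.6 in GH females (median 42.2), with a Log2FC of -0.19 (SE 0.0484, edgeR adjusted p = 0.0407). Its lowest value came from SI animal 53, and its groups overlapped. Kif1b, Kif13b and Kif16b had Log2FC values of -0.15, -0.08 and -0.04 and did not pass (edgeR adjusted p = 0.0876, 0.58 and 0.687). Kif1b passed with DESeq2 (adjusted p = 0.0246), and its adjusted p over 7 alternative fits ran from 0.0093 to 0.374.

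The genes called lie on different chromosomes. On NCBIM37, Kif5a (ENSMUSG00000074657) spans bases 126662755 to 126700136 of chromosome 10 on the minus strand, Kif5c (ENSMUSG00000026764) bases 49474818 to 49630298 of chromosome 2 on the plus strand, Kif1a (ENSMUSG00000014602) bases 94912033 to 94998442 of chromosome 1 on the minus strand, Kif1c (ENSMUSG00000020821) bases 70514050 to 70545466 of chromosome 11 on the plus strand and Kif13a (ENSMUSG00000021375) bases 46844456 to 47025087 of chromosome 13 on the minus strand. The dynactin gene Dctn2 lies beside Kif5a, on the plus strand at bases 126703442 to 126718862 of chromosome 10, and its Log2FC in females was 0.05 (edgeR adjusted p = 0.37).

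Promoters are shown for 3 of the kinesins called in females. A promoter of Kif13a and another of Kif1a were also found and are not shown. All come from RefSeq annotation on GRCm38.p6, which is another build than that of the gene spans above. A promoter was found for 43 of the 55 genes, in 49 windows of 250 bases before to 50 bases after a transcription start. Each is written 5′ to 3′ on the strand of its gene, at chr2:49619036-49619335 (plus strand) for Kif5c, chr11:70700298-70700597 (plus strand) for Kif1c and chr1:93101825-93102124 (minus strand) for Kif1a. Capitals mark matches, on either strand, to the cAMP response element TGACGTCA, the GC box GGGCGG or the TATA sequence TATAAA.
Kif5c: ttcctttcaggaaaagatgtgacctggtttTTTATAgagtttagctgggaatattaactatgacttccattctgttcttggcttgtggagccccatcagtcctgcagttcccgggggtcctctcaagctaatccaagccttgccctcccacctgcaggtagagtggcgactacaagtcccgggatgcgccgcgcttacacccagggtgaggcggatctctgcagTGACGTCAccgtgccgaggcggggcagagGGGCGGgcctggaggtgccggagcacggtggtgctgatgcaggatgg
Kif1c: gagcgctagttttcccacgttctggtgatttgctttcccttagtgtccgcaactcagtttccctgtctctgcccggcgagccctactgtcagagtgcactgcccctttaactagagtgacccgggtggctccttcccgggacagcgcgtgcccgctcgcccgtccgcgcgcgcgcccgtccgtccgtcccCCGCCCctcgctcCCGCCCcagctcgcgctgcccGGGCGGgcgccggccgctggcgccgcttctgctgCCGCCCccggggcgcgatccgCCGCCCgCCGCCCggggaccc
Kif1a: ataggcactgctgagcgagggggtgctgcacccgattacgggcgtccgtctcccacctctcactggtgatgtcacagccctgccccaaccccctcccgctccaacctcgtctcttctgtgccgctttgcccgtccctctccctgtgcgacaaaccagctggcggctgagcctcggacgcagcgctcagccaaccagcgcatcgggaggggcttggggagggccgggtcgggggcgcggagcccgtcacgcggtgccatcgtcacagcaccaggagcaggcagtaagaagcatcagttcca

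The Kif5c window held a full cAMP response element, a GC box and a TATA sequence on the opposite strand, the Kif1c window held 6 GC boxes, and the Kif1a window held none of the 3 motifs. Over all motor genes the cAMP response element was found in 5 of 49 windows (those of Kif5c, Klc1, Kif17, Kif18a and Dctn3), compared with 1.79% of the 32851 promoter windows of the table. The GC box was found in 34 of the 49 windows and in 35.7% of all windows, and the TATA sequence in 5 of 49 and in 13.6%. These are matches of letters and no measure of binding.

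Among the other transport kinesins, the kinesin-2 motors, carry vesicles and also serve cilia. Kif3a, Kif3b, Kif3c and Kif17 had Log2FC values of 0.09, 0.09, -0.01 and 0.04 in females, and none passed (edgeR adjusted p from 0.189 to 0.899). The kinesin-4 motor Kif21b, which also regulates microtubule growth, had -0.12 (edgeR adjusted p = 0.242) and its paralog Kif21a 0.04 (edgeR adjusted p = 0.726). Grouping by kinesin family was made after the values were seen: 3 of 3 kinesin-1 heavy chains and 3 of 6 kinesin-3 motors were called lower, compared with 0 of 4 kinesin-2 motors, and the difference between families was not tested.

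**Figure D3:**
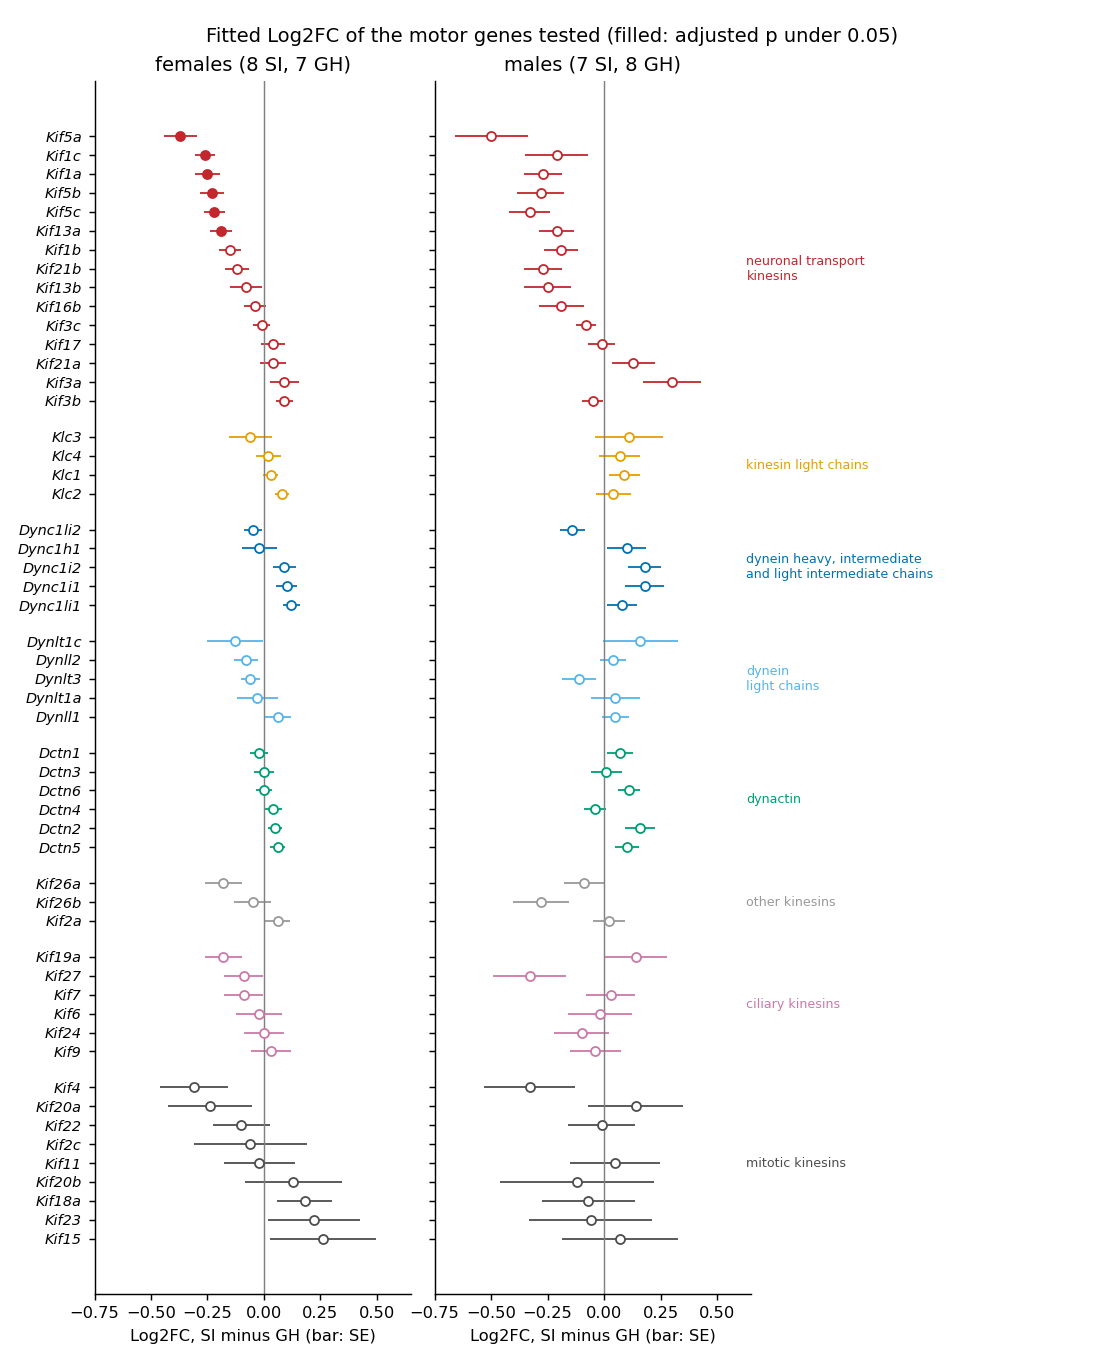
Fitted Log2FC of SI relative to GH for the motor genes tested, by class, in females (left) and males (right). Points are edgeR estimates, bars are SE, and filled points have an adjusted p under 0.05. The filled points are the 6 transport kinesins in females, and Kif5a is lowest in both panels.

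The light chains, which link kinesin-1 to its cargo, were not called by edgeR in females. Klc1 ranged from 608 to 703 CPM in SI females (median 637) and from 565 to 712 in GH females (median 601), and its Log2FC was 0.03. Klc2 ranged from 231 to 294 CPM in SI females (median 244) and from 219 to 268 in GH females (median 226), and its Log2FC was 0.08. The groups overlapped for both genes, and neither passed (edgeR adjusted p = 0.716 and 0.2). Klc3 and Klc4, both at low levels, had -0.06 and 0.02.

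None of the 16 dynein and dynactin genes was called in females by edgeR. At an unadjusted p under 0.05 there were 2, Dync1i1 and Dync1li1, both higher in SI, against 9.30% of all genes higher. DESeq2 called Dync1li1 higher (adjusted p = 0.0351). Dync1h1, the dynein heavy chain that holds the motor domain, had a median of 363 CPM in SI and 400 in GH females and a Log2FC of -0.02 (SE 0.0756). SI animal 45 had 597 CPM, above every other female. The intermediate chains Dync1i1 and Dync1i2, which bind dynactin, had 0.10 and 0.09, and the light intermediate chains Dync1li1 and Dync1li2, which bind cargo adaptors, had 0.12 and -0.05. Dync1li1 came closest to the threshold. It ranged from 66.4 to 85.3 CPM in SI females (median 75.3) and from 61.2 to 77 in GH females (median 69.6), with 3 SI females above the highest GH female and 3 GH females below the lowest SI female (edgeR adjusted p = 0.0853, and between 0.0189 and 0.33 over 7 alternative fits).

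The dynein light chains Dynll1 and Dynll2, small subunits that also bind many other proteins, had Log2FC values of 0.06 and -0.08, and Dynlt3 had -0.06. Dynlt1a and Dynlt1c are near-identical copies whose reads may be split between them, and their values, -0.03 and -0.13, are uncertain for that reason. The 6 dynactin subunits lay between -0.02 and 0.06. Dctn1, the large subunit that binds microtubules and dynein, had a median of 436 CPM in SI and 452 in GH females and a Log2FC of -0.02 (SE 0.0399, edgeR adjusted p = 0.807).

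Of the mitotic kinesins, 9 of 11 could be tested in females, and 0 were called by edgeR. At an unadjusted p under 0.05, 1 was lower and 0 higher, against 11.0% and 9.30% of all genes. DESeq2 gave no adjusted p for any of the 9, so it could call none of them. The gene with an unadjusted p under 0.05 was Kif4, a chromosome-bound kinesin of dividing cells, with a Log2FC of -0.31 (SE 0.149, edgeR adjusted p = 0.246). Kif11, the spindle motor Eg5, had a median of 1.46 CPM in SI and 1.53 in GH females and a Log2FC of -0.02 (SE 0.157). Kif20a and Kif23, motors of the dividing cell's midzone, had -0.24 (SE 0.185) and 0.22 (SE 0.204), and Kif2c, which depolymerizes microtubules at centromeres, had -0.06 (SE 0.251). The SE of the mitotic kinesins lay at 0.123 or above, compared with 0.0447 to 0.0729 for the 6 called transport kinesins, so for most of them a difference of the size seen in the transport kinesins was not detectable at this depth. The ciliary kinesins lay between -0.18 (Kif19a) and 0.03, with 0 of 6 called by edgeR or DESeq2. Kif19a alone was lower at an unadjusted p under 0.05 by edgeR, against 11.0% of all genes.

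By class, the median Log2FC in females was -0.12 over the 15 transport kinesins, 0.02 over the light chains, 0.09 over the heavy, intermediate and light intermediate chains of dynein, -0.06 over the dynein light chains, 0.02 over dynactin and -0.02 over the mitotic kinesins, beside 0.01 over all genes. The median was -0.05 over the other kinesins and -0.06 over the ciliary kinesins. The calls in females rested on surrogate variables, which stand for unlabelled variation between libraries and of which 3 were fitted. Without them the Log2FC values of the 6 kinesins were as large (-0.21 to -0.42) but edgeR called 0 motor genes and 0 of all genes. At an unadjusted p under 0.05, 8 motor genes were then lower and 1 higher, against 6.55% and 5.15% of all genes. The calls also changed when 1 mouse was left out. Without SI animal 45 edgeR called 0 motor genes, and 0.751% of all genes lower (120 genes). Without SI animal 63 or 68 it called Kif1c, with 0.812% and 0.462% of all genes lower. Without SI animal 49 or 73 or GH animal 48, 54 or 71 it called Kif1c and Kif5a, with 1.15% to 2.14% lower. Each of these fits estimated its surrogate variables anew, with 2 rather than 3 without SI animal 45. The loss of a mouse and the change of covariates cannot be told apart. In each of the 15 fits without 1 mouse, the Log2FC of each of the 6 kinesins stayed negative.

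In males, edgeR called 0 of the 52 motor genes tested and 0 of 15833 genes (0%), and DESeq2 with the same surrogate variables called 0 of the 36 motor genes for which it gave an adjusted p and 43 genes in all. At an unadjusted p under 0.05 edgeR had 10 motor genes lower in SI and 3 higher, against 7.38% and 5.63% of all genes. DESeq2 had 12 and 5, against 7.37% and 6.30%. The 10 lower genes were Kif5a, Kif5b, Kif5c, Kif1a, Kif1b, Kif13a, Kif13b, Kif21b, Kif26b and Dync1li2. The 3 higher genes were Kif3a, Dync1i2 and Dctn2. The median Log2FC in males was -0.21 over the transport kinesins, 0.08 over the kinesin light chains and 0.08 over dynactin. It was 0.10 over the heavy, intermediate and light intermediate chains of dynein and 0.05 over the dynein light chains. The other kinesins had -0.09, the ciliary -0.03 and the mitotic -0.03, beside -0.00 over all genes. Of 8 mitotic kinesins tested in males, 0 had an unadjusted p under 0.05. These medians include all 7 SI males.

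Kif5a ranged from 1367 to 3515 CPM in SI males (median 2080) and from 2780 to 4624 in GH males (median 3553), with a Log2FC of -0.50 (SE 0.162, edgeR adjusted p = 0.304). The 3 lowest values, 1367, 1672 and 1899, were those of animals 25, 33 and 39, while animals 38 and 7 had 2080 and 2344 and animals 27 and 8 had 3491 and 3515, within the GH range. Kif5c ranged from 453 to 873 CPM in SI males (median 501) and from 769 to 946 in GH males (median 831), with -0.33 (SE 0.0911, edgeR adjusted p = 0.297). Animal 38 had 501 CPM, level with the 3 animals that stood apart. Kif5b ranged from 198 to 357 CPM in SI and from 260 to 386 in GH males, and its groups overlapped widely (Log2FC -0.28, edgeR adjusted p = 0.33).

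Kif1a ranged from 315 to 1348 CPM in SI males (median 925) and from 1080 to 1319 in GH males (median 1237). Animals 25, 33 and 39 had 315, 411 and 500 CPM, and the other 4 SI males had 925 to 1348, which spans the GH range. The Log2FC was -0.27 (SE 0.0834, edgeR adjusted p = 0.302). Kif21b ranged from 19.2 to 72.2 CPM in SI and from 57.3 to 72.9 in GH males, with -0.27 (SE 0.0825, edgeR adjusted p = 0.301).

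Among the genes with higher values, Dync1i2 ranged from 90.5 to 226 CPM in SI males (median 105) and from 84.2 to 99.9 in GH males (median 92.4). The 3 highest, 226, 176 and 147, were again animals 25, 33 and 39, and the other 4 SI males reached 105. Its Log2FC was 0.18 (SE 0.074, edgeR adjusted p = 0.354). Kif3a had 88.7 to 206 CPM in SI and 78.8 to 112 in GH males, with 0.30 (SE 0.13, edgeR adjusted p = 0.362), and Dctn2 had 180 to 320 and 171 to 209, with 0.16 (SE 0.0655, edgeR adjusted p = 0.354). The light chain Dynll1 had 523 to 627 CPM in the 3 animals that stood apart, compared with 237 to 316 in the other SI males and 225 to 335 in GH males.

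**Figure D4:**
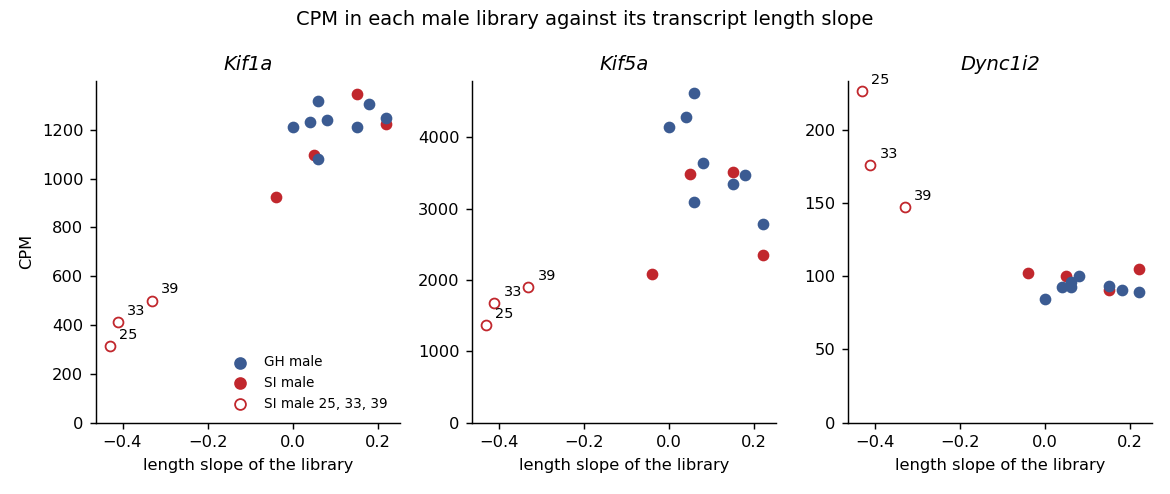
CPM of Kif1a, Kif5a and Dync1i2 in each of the 15 male libraries against the length slope of the library. Filled circles are GH (blue) and SI (red) males, and open circles are SI animals 25, 33 and 39, whose slopes lie between -0.43 and -0.33. Kif1a is 315 to 500 CPM in the open circles and 925 to 1348 in the other SI males, while Dync1i2 is highest in the open circles.

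Without animals 25, 33 and 39, edgeR called 0 motor genes, with 2 lower (Kif5a and Kif5c) and 1 higher (Dync1i2) at an unadjusted p under 0.05, against 3.38% and 2.90% of all genes. The Log2FC of Kif5a was then -0.15, that of Kif5c -0.10, that of Kif1a -0.08, that of Kif5b -0.02 and that of Kif21b -0.14. Dync1i2 then had 0.11, Kif3a 0.04 and Dctn2 -0.00. In the 4 SI males that remained, Kif3a reached 134 CPM rather than 206, Dctn2 reached 246 rather than 320, and Kif21b began at 51.2 rather than 19.2. That fit estimated 4 surrogate variables from 12 mice. When they were left out as well, an alternative chosen after seeing the data, Kif5a had -0.36, Kif5c -0.21, Kif1a -0.10, Kif5b -0.25, Kif3a 0.24 and Dctn2 0.10. Kif5a was then the sole motor gene at an unadjusted p under 0.05, against 1.04% of all genes lower and 2.32% higher. Leaving out SI animal 27 alone had the opposite effect: edgeR then called 11 motor genes lower, among them all 6 kinesins called in females, and 5 higher, while it called 9.13% and 6.12% of all genes.

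The 6 kinesins called in females had negative Log2FC values in males too, and all but Kif1c were among the 10 genes lower at an unadjusted p under 0.05. Without animals 25, 33 and 39 Kif1c had 0.04 and the others stayed negative. Of the 6, Kif5a and Kif5c alone were then lower at an unadjusted p under 0.05. With all 15 males, 34 of the 52 motor genes tested in both sexes had the same direction (65.4%), compared with 59% of all genes. No interaction of sex and housing was called among the 55 motor genes by edgeR or DESeq2, and by edgeR 1 of 16391 genes passed (0.00610%). At an unadjusted p under 0.05, edgeR's interaction term passed for Klc2 alone (male minus female Log2FC -0.15, edgeR adjusted p = 0.685), compared with 7.05% of all genes. For Kif5a the male minus female difference was -0.09 (SE 0.197) and for Kif1a 0.01 (SE 0.115).

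Transcript length varied along with the classes. The 6 kinesins called in females had coding transcripts between 6015 and 8257 bases, and over the motor genes Spearman's rho between Log2FC and transcript length was -0.36 in females (n = 53 genes) and -0.57 in males (n = 52 genes), compared with -0.033 and -0.3 over all genes. Without animals 25, 33 and 39 the values in males were -0.27 (n = 55 genes) and -0.093. With all 15 males but no surrogate variables they were -0.7 and -0.63, close to each other. After removal of each library's trend with length and GC content they were -0.33 and 0.097. Genes of a fit share the same libraries and are not independent. In females the length slope of the libraries differed between SI and GH by -0.01 on average (two-sided p = 0.853 by an exact permutation test of all 6435 splits). In males it was lower in SI by a margin that did not pass (-0.21, exact permutation test, two-sided p = 0.0681). Without animals 25, 33 and 39, which were set apart by this same slope, the difference was -0.00.

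**Figure D5:**
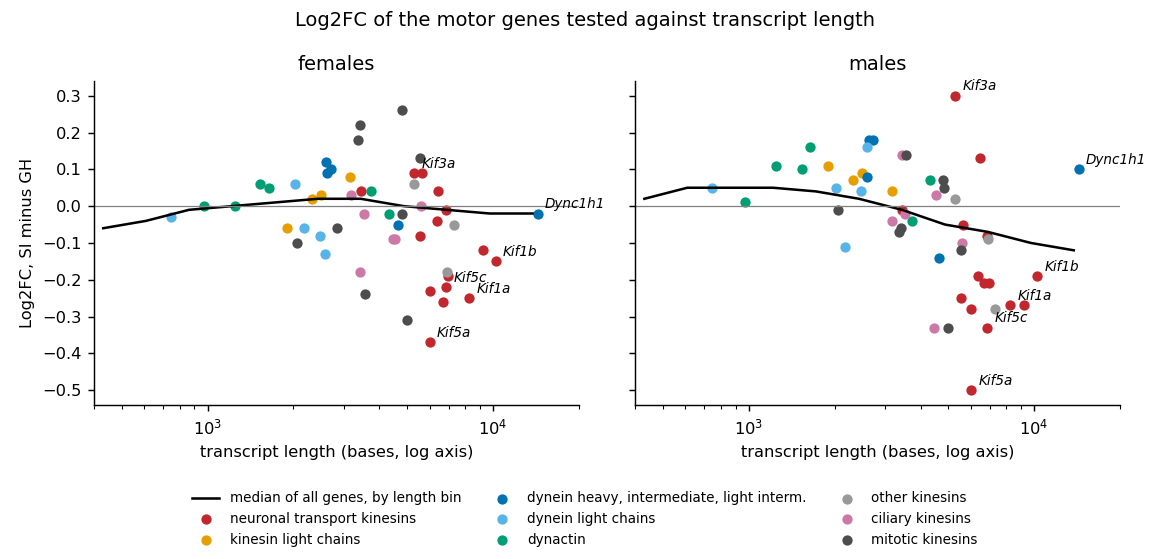
Log2FC of SI relative to GH against the length of the longest coding transcript (log axis) for the motor genes tested, by class, in females and males. The black line is the median over all genes in length bins of at least 20 genes. In females the line stays between -0.06 and 0.02, and the Kif5 and Kif1 genes lie below it, while Kif3a lies above it and Dync1h1 on it.

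Among genes with a coding transcript of at least 5000 bases, edgeR called 6 of 20 motor genes lower in females, beside 5.06% of the 2788 such genes in the table, and 9 of 20 were lower at an unadjusted p under 0.05, beside 417 of the 2788. In males 9 of 20 were lower at an unadjusted p under 0.05, beside 20.1% of 2773. The other 11 long motor genes tested in females, Kif13b, Kif16b, Kif21a, Kif3a, Kif3b, Kif3c, Dync1h1, Kif26b, Kif2a, Kif24 and Kif20b, had Log2FC values between -0.08 (Kif13b) and 0.13 (Kif20b). Dync1h1, with the longest transcript of the 55, had -0.02 in females and 0.10 in males, the latter changing to -0.15 without surrogate variables and to -0.22 with the position digit, taken from the labels, as a factor. When each library's trend with length and GC content was removed, edgeR called 7 motor genes lower in females (the 6 and Kif1b) and 3 higher (Dync1i1, Dync1li1 and Klc2), while the share of all genes called was then 6.08% lower and 3.34% higher. In males the same correction left 2 motor genes lower (Kif5a and Kif5c) and 4 higher (Kif3a, Kif21a, Dync1i2 and Dync1h1) of 52 at an unadjusted p under 0.05, against 4.52% and 4.86% of all genes.

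Of the genes that couple motors to cargo, 24 of a list of 25 adaptors and regulators were tested. In females edgeR called 3 of them lower and 0 higher: Trak1 (Log2FC -0.18, adjusted p = 0.035) and Trak2 (-0.22, adjusted p = 0.0343), which link kinesin-1 to mitochondria, and Mapk8ip1 (-0.18, adjusted p = 0.0326), a scaffold that binds kinesin light chains. Rhot1, the mitochondrial receptor of the Trak proteins, had 0.15 (edgeR adjusted p = 0.0533). DESeq2 called these 3 genes called by edgeR, also Spag9 lower and Rhot1 higher. Of all genes, edgeR called 2.94% lower and 0.936% higher, and DESeq2 5.32% and 2.58%. At an unadjusted p under 0.05, edgeR had 5 of the adaptors lower and 3 higher, against 11.0% and 9.30% of all genes. The median of the list was -0.01. Among 11 other subunits and motors edgeR called Kifc2, a minus-end directed kinesin of neurons, lower (-0.28, adjusted p = 0.00874). In males neither edgeR nor DESeq2, which gave no adjusted p for 3 of them, called any of these genes. At an unadjusted p under 0.05 edgeR had 4 of the adaptors lower and 0 higher, and 0 of the 11, against 7.38% and 5.63% of all genes.

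In females the marker genes of some cell types were lower in SI, as the called kinesins were, and those of others were not. Association of markers with kinesins between mice was not tested. Since whole tissue was sequenced, fewer cells of a type and less RNA per cell cannot be told apart. Of 6 neuron markers, 5 were found and detected in every library. By edgeR 0 were called in either sex. At an unadjusted p under 0.05, 1 was higher in females and 2 in males, against 9.30% and 5.63% of all genes. DESeq2 called Snap25 higher in females. All 5 had Log2FC values at or above 0.00 in females, and their summed level was 4025 to 5042 CPM in SI and 3934 to 4541 in GH females. All 6 astrocyte markers had negative values in females, 3 of them called by edgeR (Slc1a2 at -0.28, Aldh1l1 at -0.27 and Slc1a3 at -0.24), and their sum was 3625 to 4840 CPM in SI and 4162 to 5841 in GH females. DESeq2 called 4, Gfap being the other. Of all genes, edgeR called 2.94% lower and DESeq2 5.32%. At an unadjusted p under 0.05 edgeR had 5 of the 6 lower, against 11.0% of all genes. In males all 6 astrocyte markers had negative values, and 0 were called by edgeR or DESeq2. At an unadjusted p under 0.05 edgeR had 1 lower, against 7.38% of all genes. The sum was 2385 to 4660 in SI (2918 to 4660 without animals 25, 33 and 39) and 3929 to 5326 in GH.

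The 7 oligodendrocyte markers had negative values in females with 0 called by edgeR, 2 at an unadjusted p under 0.05 and the same 2, Mbp and Mobp, called by DESeq2 (sum 5794 to 8880 CPM in SI and 6448 to 9775 in GH), and of 5 endothelial markers edgeR and DESeq2 called Flt1 higher. At an unadjusted p under 0.05 edgeR had 3 endothelial markers higher in females. Of all genes, 11.0% were lower and 9.30% higher at that threshold. None of the 6 microglia, 5 ependymal, 8 choroid plexus or 5 immature neuron markers was called in either sex by edgeR or DESeq2 (which gave no adjusted p for 3 of them in males), with 2 genes in females and 1 in males at an unadjusted p under 0.05 by edgeR. In females all 8 choroid plexus and all 5 endothelial markers had positive Log2FC values, and all 5 ependymal and all 6 microglia markers negative ones. In males 6 choroid plexus, 2 endothelial, 0 ependymal and 5 microglia markers were negative. Choroid plexus RNA varied most between libraries, with sums from 2111 to 5586 CPM in SI and 1294 to 7103 in GH females. In males the sums were 165 to 4713 in SI (165 to 2714 without animals 25, 33 and 39) and 165 to 2914 in GH. The 13 markers of dividing cells summed to 14.2 to 15.9 CPM in SI and 12.9 to 16.9 in GH females and to 11.6 to 14.8 and 13.2 to 15.5 in males, with 0 of 12 called in either sex by edgeR, 0 at an unadjusted p under 0.05, no adjusted p from DESeq2 for any of the 12, and Bub1 at 0 in a male library. The part of these cell types in the kinesin results was not tested.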

How the data were processed

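RNA-seq of 30 mouse hippocampi was analysed from 1 table of counts per gene and mouse. Per the paper's methods the authors trimmed paired-end reads and used Salmon for quantification. The deposited values are whole-number counts with 1 column per mouse and totals that differ between libraries, and how they were made from the Salmon estimates is not given in the sources used here. The submitters' processing notes name Trimmomatic 0.39, Salmon 1.8.0, DESeq2 1.24.0 and the builds GRCm39 and mm39. Each gene kept had at least 100 counts in all, and total counts per library were 18809307 to 100844898. Replicate pairs differed by more than sampling noise (chi-square per degree of freedom of at least 9.29 in 98 pairs), and no pair was identical.

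Ensembl IDs were matched to symbols (94.1% of genes), and spans and the longest coding transcript came from GENCODE vM1 on NCBIM37 (91.3% of genes, all 55 motor genes). Within each sex, genes were filtered with filterByExpr (minimum count 10, minimum total 15), normalized by TMM and tested for SI against GH with edgeR 4.0.16 (glmQLFit and glmQLFTest) in R 4.3.3. Surrogate variables were covariates, from svaseq of sva 3.50.0 with 20 permutations and seed 1: 3 in females, 2 in males and 4 in the interaction fit of all 30 mice. Benjamini-Hochberg adjustment covered all genes tested, with a threshold of 0.05. CPM are counts scaled to the TMM-adjusted library size, without the surrogate variables, so their ratio need not equal the Log2FC. The SD is of CPM between mice. The SE and p-values of the main fits rest on the spread between these mice that the surrogate variables left.

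Members, classes, lists and named genes were chosen with earlier results of these data known. The named genes were a fixed set of motor genes, every member past the threshold, the smallest p values in each sex and direction, and pathway genes past the threshold. Other genes named were chosen after their values were seen. Alternatives were DESeq2 1.42.0, no surrogate variables, DESeq2 size factors, no filter, lowess removal (span 0.3) of the trend with length and GC content in each library, the position digit from the sample labels as factor, all 4 groups in 1 fit, each mouse left out, and males without animals 25, 33 and 39. Fits that left out mice and used surrogate variables estimated them anew. The steps were tested on simulated data.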

Additional observations from a re-analysis of the deposited data

Results flagged for a closer look

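A sample was singled out where its gap to the next value, divided by the range of its group, passed Dixon's critical value, which chance does in about 1 of 20 groups, and 12 values did so in 116 groups of the 29 motor genes chosen for naming. Over all 55 motor genes, 24 values did so in 220 groups.

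In females, SI animal 45, the library with the most counts, held the highest value of its group for Dync1h1 (597 CPM, the next SI female having 414), Dctn1 (585 CPM, next 479), Klc2 (294 CPM, next 255) and Kif21a (209 CPM, next 167). SI animal 53 held the lowest value for Dync1li2 (173 CPM, next 188) and Kif13a (26.2 CPM, next 34.3). GH animal 46 held the lowest value for Kif5b (276 CPM, next 371). Without animal 46, edgeR called 7 motor genes lower, the 6 called with it and Kif1b, and Dync1li1 higher, against 4.29% and 1.61% of all genes.

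In males, GH animal 23 was lowest for Kif1a (1080 CPM, next 1210), and GH animal 24 was lowest for Klc2 (225 CPM, next 253) and highest for Kif4 (1.97 CPM, next 1.47). SI animal 25 was highest for Kif23 (1.02 CPM, next 0.472), and GH animal 15 was highest for Kif2c (0.44 CPM, next 0.302).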

How the results depend on the processing

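In females, DESeq2 size factors, no filter and all 4 groups in 1 fit gave 6, 5 and 4 motor genes lower by edgeR and 0 higher. The share of all genes called lower was then 2.96%, 3.31% and 1.90%. The fit of all 4 groups called Kif13a, Kif1a, Kif5c and Kif1b, and Kif5a, Kif5b and Kif1c did not pass (edgeR adjusted p = 0.0807, 0.0962 and 0.111). DESeq2 gave 7 lower and 1 higher (Dync1li1), and removal of the length and GC trend gave 7 lower and 3 higher. Without surrogate variables, or with the position digit as a factor in their place, 0 were called lower and 0 higher. At an unadjusted p under 0.05, 8 and 7 were then lower, against 6.55% and 6.30% of all genes. The cause was not tested. No GH female has position digit 3, so the digit is partly confounded with housing. Leaving out 1 mouse gave 0 to 7 lower and 0 to 1 higher. The share of all genes then ran from 0.462% (without SI 68) to 5.55% (without GH 78) lower, and from 0.0750% to 3.36% higher. In males 0 motor genes were called under each alternative run, and leaving out 1 mouse gave 0 to 11 lower and 0 to 5 higher, with calls only without SI animal 27; the cause was not tested. At an unadjusted p under 0.05, the number lower in males without 1 mouse was smallest at 3, without SI 25 or GH 24, against 3.43% and 2.62% of all genes. It was largest at 17, without SI 38, against 14.5% of all genes. With all males but no surrogate variables, 11 were lower and 9 higher at that threshold, against 10.3% and 19.8% of all genes. With the position digit as a factor, 3 were lower and 4 higher, against 2.05% and 5.68%. The interaction gave 0 members under each alternative run, and no called gene changed sign. No paired analysis was possible because the groups share no animal numbers.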
